A study of Mus musculus with 18 samples.

Results

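The MHC class II presentation genes examined in these dendritic cells (DCs) were H2-Aa, H2-Ab1, H2-Eb1, Cd74, H2-DMa, H2-DMb1, H2-DMb2, H2-Oa, H2-Ob and Ciita. They were taken by name, not by a threshold on a measured value, though earlier results of these data were known. They were 10 of the 29875 genes in the count table. All 10 passed the filter on low counts, which kept 13844 genes for testing. Bulk mRNA was sequenced from 18 libraries of mouse bone marrow-derived DCs, 3 replicates in each of 6 groups. All 6 groups were wild-type C57Bl6/J cells from mice of 8 to 12 weeks, grown with 10% GM-CSF hybridoma supernatant and matured from day 8 with 200 ng/ml lipopolysaccharide for 24 h. In 4 groups the DCs migrated toward the chemokine CCL19 through bovine collagen gels of 1.7, 2.6, 3.5 or 4.4 mg/ml, and RNA was taken 5 h after the gradient was set up. In the other 2 groups the chambers held no collagen. These suspension groups are titled as without and as plus CCL19, but their library names say the reverse, so both are named here by title and no effect of CCL19 is read from them. The titles call the replicates biological, and which animals they came from is not given in the sources used here. Cultures grown in GM-CSF are known to hold macrophage-like cells and granulocytes beside DCs.

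MHC class II molecules display peptides from endocytosed protein to CD4+ T cells. An alpha and a beta chain pair in the endoplasmic reticulum around the invariant chain, encoded by Cd74, which fills the peptide groove and directs the complex to endosomes. Proteases there degrade the invariant chain, the chaperone H2-DM exchanges its last fragment for peptide, and H2-DO restrains H2-DM. Transcription of the chains and of Cd74 rests largely on a shared promoter module bound by RFX, CREB and NF-Y, to which the coactivator CIITA, encoded by Ciita, is recruited. Maturing DCs are known to shut down Ciita transcription while long-lived class II protein stays on the surface. C57BL/6 mice carry a defective E alpha gene, so that A alpha-A beta is their only classical class II pair.

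Of the 10 genes, 8 lie within the class II region of chromosome 17 in GRCm38, from H2-Oa (34092340-34095234, plus strand) to H2-Eb1 (34305867-34316674, plus strand). Ciita lies on chromosome 16 (10480059-10528418, plus strand), and Cd74 on another chromosome. RefSeq promoters (GRCm38.p6) were matched by symbol for 7 of the 10 genes. The sequences of 6 of them are shown because CIITA acts through such promoters, and Ciita was the member with the largest differences. The letters searched are short, and no window was shown to hold the whole module. H2-DMa is described without its sequence. Each run covers 60 bases on the strand of its gene, and capitals mark GATTGG and also GCAACNG and ATGATGC. The first holds the reverse complement of CCAAT, the letters NF-Y binds, so these letters overlap in every match, while GCAACNG and ATGATGC are letters of the X box that RFX and CREB bind.
H2-Aa, chr17:34287858-34287917, minus strand: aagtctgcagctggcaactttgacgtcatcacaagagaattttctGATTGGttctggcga
H2-Eb1, chr17:34305762-34305821, plus strand: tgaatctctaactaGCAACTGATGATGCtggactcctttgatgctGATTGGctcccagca
H2-DMb1, chr17:34153084-34153143, plus strand: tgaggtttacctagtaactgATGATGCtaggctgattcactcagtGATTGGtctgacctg
H2-DMb2, chr17:34145113-34145172, plus strand: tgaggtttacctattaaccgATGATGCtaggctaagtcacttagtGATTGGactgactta
H2-Oa, chr17:34092290-34092349, plus strand: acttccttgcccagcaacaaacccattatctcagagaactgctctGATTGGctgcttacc
H2-Ob, chr17:34238802-34238861, plus strand: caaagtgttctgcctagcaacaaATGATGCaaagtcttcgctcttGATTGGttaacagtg
GATTGG began 44 bases before the RefSeq start of H2-Oa and 49 before that of H2-Aa. It began 58 bases before the start of H2-Ob, 60 before H2-Eb1, 62 before H2-DMb1 and 91 before H2-DMb2. H2-DMa has 2 RefSeq starts, and GATTGG lay 199 bases before 1 of them. On both strands, GATTGG was found in 16.1% of 32851 promoters of the same length, CCAAT in 37.4%, GCAACNG in 12.7% and ATGATGC in 2.46%. ATGATGC stood in 4 of the 7 genes (H2-Eb1, H2-DMb1, H2-DMb2 and H2-Ob) and was searched only after these windows had been read. Such matches describe the sequence and were not tested for binding.

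The libraries held 13062944 to 28059839 counts, so that 3 counts corresponded to 0.107 to 0.230 counts-per-million (CPM). Summed over the 8 DC markers, CPM ran from 16320 to 63020, with Ccr7 at 2342 CPM or more in every library and Cd209a at 0.60 CPM or less. Eosinophil markers differed between conditions. Their summed level was 117 to 1339 CPM in suspension and 14.0 to 168 CPM in collagen. Of the 8, 7 were called lower in collagen, among them Epx and Prg2 (granule proteins). Of all genes tested, 12.4% were called lower in this comparison, or 19.3% with the replicate number as a block. Macrophage markers summed to 356 to 1956 CPM in suspension and 329 to 2181 CPM in collagen, and were highest in replicate 1 of every group. Neutrophil markers summed to 516 to 7101 CPM, B cell markers to 23.6 CPM at most and T cell markers to 0.94 CPM at most.

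Class II mRNA was abundant in every library. Cd74 ranked from 2 to 5 among all genes by count, and Cd74, H2-Aa, H2-Ab1 and H2-Eb1 together took 1.79% to 4.67% of all counts. In suspension this share was 3.24% ± 1.37 (SD, n = 6) and in collagen 3.24% ± 0.884 (SD, n = 12). H2-Ea-ps, the defective E alpha gene, had at most 3 counts in any library, and H2-Eb2, a second E beta gene, stood at 1.02 to 14.4 CPM.

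Ciita, the master coactivator, was the member whose mRNA differed between conditions. At 4.4 mg/ml its 3 libraries stood at 38.2, 35.8 and 27.7 CPM (replicates 1, 2 and 3). At 3.5 mg/ml they stood at 55.7, 55.6 and 62.8 CPM. Among the collagen libraries of the lower densities, only 1.7 mg/ml replicate 3 was as low as the 3.5 mg/ml group. At 2.6 mg/ml the values were 86.9, 75.1 and 84.8 CPM. At 1.7 mg/ml they were 75.9, 112 and 61.2 CPM. The suspension libraries titled as without CCL19 reached 227, 136 and 246 CPM, above every other library. Those titled plus CCL19 spread over 117, 36.8 and 71.0 CPM and overlapped all 4 densities.

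Over all libraries Ciita stood at 64.4 ± 24.3 CPM in collagen (SD, n = 12) and at 139 ± 83.5 CPM in suspension (SD, n = 6). The log2 difference, collagen minus suspension, was -1.03 (SE 0.21), and Ciita fell past the threshold (adjusted p = 0.00492, edgeR quasi-likelihood test with Benjamini-Hochberg adjustment over all genes, FDR 0.1). It was the only 1 of the 10 members called in this comparison, in which 20.2% of all genes tested were called, 7.78% higher and 12.4% lower. The eosinophil markers given above fell in the same comparison, and their part in the level of Ciita was not tested. In bulk RNA, fewer cells of a type and less RNA per cell cannot be told apart. Leaving out each of the 18 libraries in turn kept the call in 18 of 18 fits, with the log2 difference of Ciita between -1.19 and -0.77. Leaving out all of replicate 1 ended it (log2 difference -0.73, adjusted p = 0.121), though not when the replicate number was a block (-0.70, adjusted p = 0.0877).

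By density, the log2 difference of Ciita from suspension was -0.57 at 1.7 mg/ml (SE 0.31, adjusted p = 0.694) and -0.58 at 2.6 mg/ml (SE 0.31, adjusted p = 0.318). It was -1.09 at 3.5 mg/ml (SE 0.32, adjusted p = 0.0888) and -1.86 at 4.4 mg/ml (SE 0.34, adjusted p = 0.00345). Ciita was thus called lower at the upper 2 densities, where 4.9% (3.5 mg/ml, 2.93% lower) and 14.8% (4.4 mg/ml, 6.55% higher and 8.29% lower) of all genes were called, and at neither of the lower 2, where 0.0361% (1.7 mg/ml) and 7.87% (2.6 mg/ml) were. The call at 4.4 mg/ml held in 18 of 18 fits with 1 library left out, between -2.03 and -1.59. The call at 3.5 mg/ml held in 5 of those 18. With the replicate number as a block, Ciita at 3.5 mg/ml stood at -1.05 (adjusted p = 0.0300), where 18.4% of all genes were called and 10.4% called lower, and it passed in 17 of 18.

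Within the gels, the group means of Ciita were 83.2 ± 26.4, 82.3 ± 6.28, 58.0 ± 4.15 and 33.9 ± 5.47 CPM from 1.7 to 4.4 mg/ml (SD, n = 3 each). The means at 1.7 and 2.6 mg/ml differed by less than their spread, while the libraries at 3.5 and 4.4 mg/ml did not overlap. How many of all genes separate in this way was not counted, so nothing particular to Ciita is read from it. The fitted slope was -0.49 log2 units per mg/ml (SE 0.13, adjusted p = 0.356), and 4.4 against 1.7 mg/ml gave -1.30 (SE 0.36, adjusted p = 0.376). Neither passed, in tests that called 0.00722% of all genes each. With the replicate block both did, at -0.50 per mg/ml (adjusted p = 0.0658) and -1.32 (adjusted p = 0.0762), where 1.45% and 1.73% of all genes were called, 0.65% and 0.607% lower. With 1 library left out of the blocked fit, the slope was called in 10 of 18 fits. Within replicates 1, 2 and 3, Ciita at 4.4 mg/ml stood at -0.99, -1.65 and -1.14 log2 units relative to 1.7 mg/ml. The share of all genes with the same direction in every replicate was not counted for these densities. Any difference among the 6 groups was called for Ciita (adjusted p = 0.0144) and for no other member, against 4.9% of all genes.

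**Figure D1:**
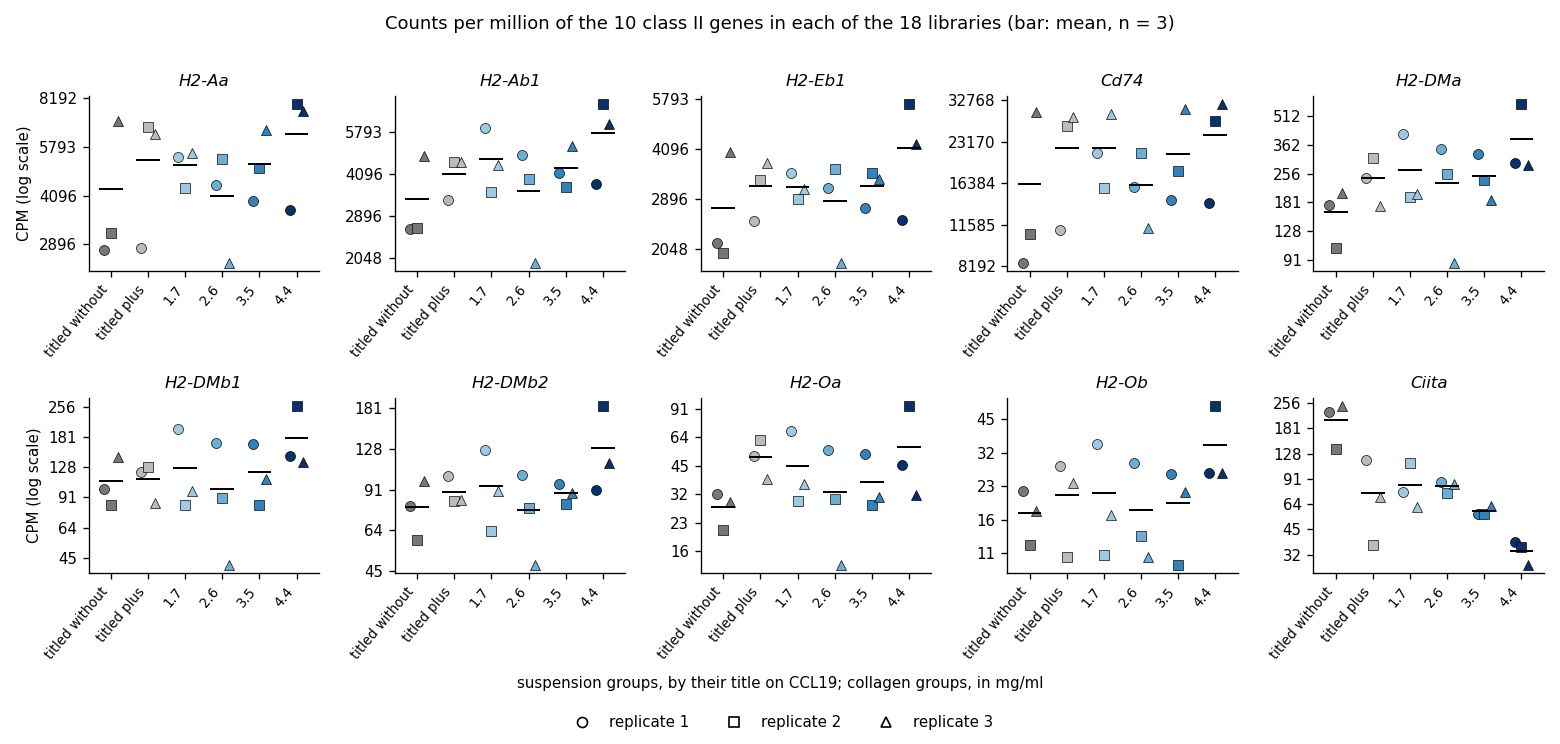
Levels of the 10 class II genes in CPM on a log scale (y axis) for each of the 18 libraries by group (x axis), with 1 point per library, the marker giving the replicate and the bar the mean of 3 libraries. Ciita at 4.4 mg/ml sits between 27.7 and 38.2 CPM, below the other collagen groups, while the other 9 genes overlap between groups.

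The size of the Ciita difference depended on which suspension group served as control, a choice examined after its levels had been seen. Against the suspension libraries titled plus CCL19 alone, Ciita differed by -0.30 over all collagen libraries (SE 0.27, adjusted p = 0.559), and the call was lost in a comparison that called 13.7% of all genes. For the 4.4 mg/ml group it was kept, at -1.14 (SE 0.36, adjusted p = 0.0715), where 10.1% were called. Against the same control, Ciita at 1.7 and 2.6 mg/ml stood at 0.15 and 0.14, with the opposite sign, and at 3.5 mg/ml it stood at -0.37 (adjusted p = 0.654). Replicate 2 of this control, its lowest in Ciita (36.8 CPM), had the highest eosinophil (1339 CPM) and neutrophil (7101 CPM) marker sums of all libraries. In the group titled as without CCL19, replicate 3 had the highest sums (500 and 2003 CPM) and the highest Ciita (246 CPM). The part of such cells in these differences was not tested. Against the libraries titled as without CCL19 alone, the difference was -1.75 over all collagen libraries (SE 0.25, adjusted p = 0.00257, where 8.41% of all genes were called) and -2.58 at 4.4 mg/ml (SE 0.37, adjusted p = 0.00540, 10.3% of all genes called). The lower level at 4.4 mg/ml was therefore called against either control, and the lower level of the collagen groups as a whole was not.

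Between the suspension groups themselves, Ciita in the libraries titled plus CCL19 stood at -1.44 log2 units relative to those titled as without (SE 0.36, adjusted p = 0.761), and no gene of 13844 was called by edgeR, while 855 had an unadjusted p under 0.05. DESeq2 called 0 genes without the replicate block and 194 (1.4%) with it, among them Ciita. Within replicates 1, 2 and 3 the difference of Ciita was -0.96, -1.89 and -1.79. The share of all genes with the same direction in every replicate was not counted for these groups either.

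The genes of the A and E chains and of the invariant chain gave no call in any comparison by edgeR on all 18 libraries. This held with or without the replicate block, unless offsets for GC content and length were added to the block. Then H2-Ab1 was called over all collagen libraries (0.42, adjusted p = 0.0801) and at 4.4 mg/ml (0.64, adjusted p = 0.0548). The block called 2.91% of all genes at 1.7 mg/ml, 21.6% at 2.6 mg/ml and 24.3% for any difference among the 6 groups. H2-Aa, the A alpha chain, ran from 3705 to 7863 CPM at 4.4 mg/ml and from 2789 to 6949 CPM in suspension. H2-Ab1, the A beta chain, stood at 3766, 7321 and 6175 CPM at 4.4 mg/ml, and from 2605 to 4756 CPM with a median of 3902 CPM in suspension. H2-Eb1, the E beta chain, stood at 2500, 5591 and 4219 CPM at 4.4 mg/ml and from 1984 to 4016 CPM in suspension. Replicates 2 and 3 at 4.4 mg/ml exceeded all 6 suspension libraries for each of these chains, and replicate 1 lay within their range. Cd74, the invariant chain, whose gene lies on chromosome 18, ran from 8416 to 29670 CPM in suspension, from 11310 to 31820 CPM in collagen and stood at 13930, 27550 and 31820 CPM at 4.4 mg/ml.

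Collagen minus suspension, the log2 differences were 0.10 for H2-Aa (SE 0.27, adjusted p = 0.843), 0.28 for H2-Ab1 (SE 0.23, adjusted p = 0.471), 0.17 for H2-Eb1 (SE 0.22, adjusted p = 0.671) and 0.12 for Cd74 (SE 0.31, adjusted p = 0.835). At 4.4 mg/ml they were 0.42 for H2-Aa (SE 0.37), 0.64 for H2-Ab1 (SE 0.32), 0.49 for H2-Eb1 (SE 0.30) and 0.37 for Cd74 (SE 0.44), with adjusted p from 0.229 to 0.641. With the block, H2-Ab1 at 4.4 mg/ml passed once 4.4 mg/ml replicate 1 (0.90), 2.6 mg/ml replicate 3 (0.69) or replicate 3 of the suspension group titled as without CCL19 (0.82) was left out. H2-Eb1 passed without the last of these (0.66). The standard errors leave room for changes of the size seen, and these values do not show that the chains were at the same level. Libraries of the same condition differed widely: in suspension Cd74 had a coefficient of variation of 52.4%, and the highest library was replicate 3 in both suspension groups.

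H2-DM, the peptide exchange factor, was next. H2-DMa, its alpha chain, stood at 292, 590 and 285 CPM at 4.4 mg/ml. In suspension H2-DMa stood at 243, 308 and 173 CPM (titled plus CCL19) and at 176, 105 and 204 CPM (titled as without). Replicate 2 at 4.4 mg/ml was the highest of all 18 libraries, and replicates 1 and 3 lay within the suspension range. The log2 difference of H2-DMa at 4.4 mg/ml was 0.98 (SE 0.39, adjusted p = 0.127), which did not pass, and over all collagen libraries it was 0.49 (SE 0.29, adjusted p = 0.291). In the blocked fit H2-DMa rose at 4.4 mg/ml by 0.95 (SE 0.33, adjusted p = 0.0445). The blocked difference of H2-DMa was 0.53 (adjusted p = 0.332) once 4.4 mg/ml replicate 2 was left out.

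The genome holds a tandem pair of genes for the H2-DM beta chain. H2-DMb1 stood at 146, 260 and 136 CPM at 4.4 mg/ml against 83.3 to 145 CPM in suspension. H2-DMb2 stood at 90.4, 184 and 114 CPM against 58.8 to 102 CPM. Both were highest in 4.4 mg/ml replicate 2 among all libraries, and lowest in 2.6 mg/ml replicate 3. At 4.4 mg/ml H2-DMb1 differed by 0.71 (SE 0.39, adjusted p = 0.273) and H2-DMb2 by 0.63 (SE 0.29, adjusted p = 0.179). With the replicate block H2-DMb2 was called (0.66, SE 0.27, adjusted p = 0.0830) and H2-DMb1 was not (0.72, SE 0.33, adjusted p = 0.128), and the difference between these genes was not tested. They share near-identical sequence: 369 stretches of 50 bases occur in the transcripts of both, of 1629 in H2-DMb1 and 1741 in H2-DMb2, so reads can be split between them. Counting every other gene, 451 stretches of H2-DMb2 (25.9%) were shared, with 297 genes, while those of H2-DMb1 were shared with H2-DMb2 only. H2-DMb2 took 36.1% to 53.5% of the counts of the pair.

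Over all 18 libraries, the genes of H2-DO, the modulator of H2-DM, had the lowest mean CPM of the 10, though at 4.4 mg/ml the mean of Ciita lay below both. H2-Oa, its alpha chain, stood at 45.7, 93.4 and 31.7 CPM at 4.4 mg/ml and at 20.6 to 61.6 CPM in suspension, a log2 difference of 0.62 (SE 0.41, adjusted p = 0.370). H2-Ob, its beta chain, stood at 25.9, 51.9 and 25.8 CPM at 4.4 mg/ml and at 10.9 to 28.0 CPM in suspension. H2-Ob at 4.4 mg/ml differed by 0.87 (SE 0.43, adjusted p = 0.219), and with the replicate block it rose by 1.05 (SE 0.35, adjusted p = 0.0358). Again 4.4 mg/ml replicate 2 was the highest library of all, and without it the blocked difference of H2-Ob was 0.23 (adjusted p = 0.636).

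With the replicate block, 4 of the 10 members were thus called at 4.4 mg/ml, H2-DMa, H2-DMb2 and H2-Ob higher and Ciita lower, where 31.9% of all genes were called, 15.8% higher and 16.2% lower. Without the block 1 of 10 was called against 14.8%. Leaving out 4.4 mg/ml replicate 2 left 1 member called in either fit, Ciita. Over the 18 blocked fits with 1 library left out, H2-Ob was called in 17, H2-DMa in 15 and H2-DMb2 in 6. The blocked share of members is close to that of all genes, and nothing particular to these genes is read from it.

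Macrophage-like cells also make class II molecules, and their 7 markers were looked at in the same comparison. With the replicate block, 4 of the 7 macrophage markers were called higher at 4.4 mg/ml, beside 15.8% of all genes. Fcgr1, a high-affinity IgG receptor, differed by 2.36 (SE 0.35, adjusted p = 0.000215), C1qa by 1.67 (SE 0.50, adjusted p = 0.0218), C1qb by 1.51 (SE 0.38, adjusted p = 0.00801) and Adgre1 by 0.82 (SE 0.20, adjusted p = 0.00648). The others did not pass, none of the 7 passed without the block, and none was at 0 in any library. The summed list stood at 1866, 1439 and 787 CPM at 4.4 mg/ml. In suspension it stood at 1956, 881 and 408 CPM (titled plus CCL19) and at 1454, 453 and 356 CPM (titled as without). The part of such cells in the H2-DM and H2-DO levels was not tested. The 5 B cell markers summed to 6.54, 7.34 and 13.4 CPM at 4.4 mg/ml, within the 1.51 to 23.6 CPM of the suspension libraries, and most of this was Cd79b (5.38 to 8.89 CPM).

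**Figure D2:**
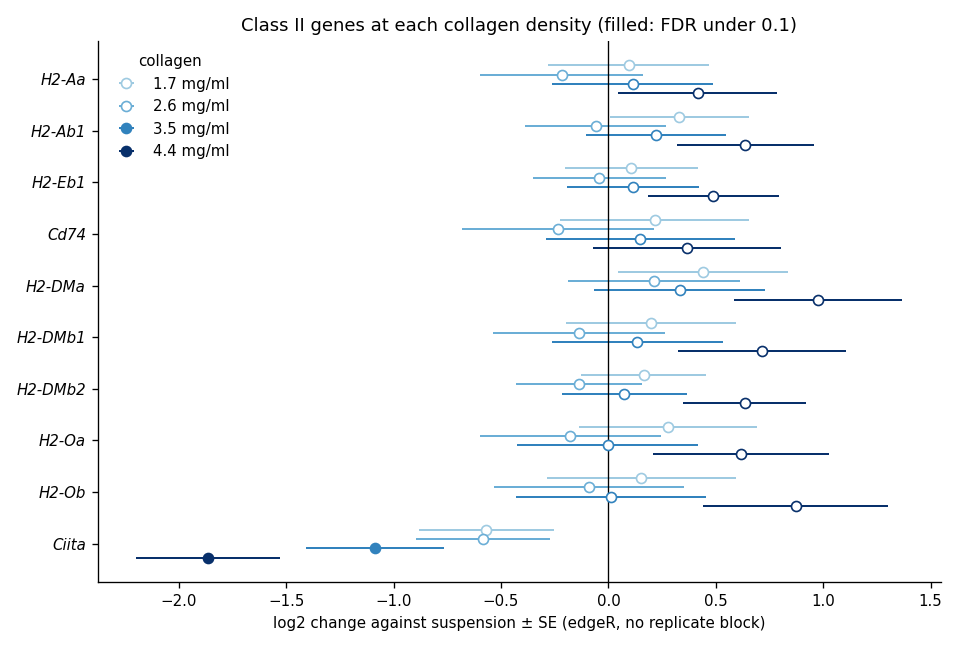
Log2 difference from the suspension libraries with its SE (x axis, edgeR without the replicate block) for the 10 genes (y axis), with 1 point per collagen density, darker at the higher ones. Filled points passed FDR 0.1: Ciita at 3.5 mg/ml (-1.09) and at 4.4 mg/ml (-1.86), while the other 9 genes lie above 0 at 4.4 mg/ml without passing.

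Comparing libraries of the same replicate number, which share a date and a sequencing lane in the library names, 8 of the 10 members were higher at 4.4 mg/ml than in suspension in 3 of 3 replicates and Ciita was lower in 3 of 3. Of all genes tested, 23.9% were higher and 25.6% lower in 3 of 3. H2-Ab1 differed by 0.36, 1.09 and 0.41 log2 units in replicates 1, 2 and 3. H2-DMa differed by 0.50, 1.71 and 0.60, and H2-Ob by 0.08, 2.15 and 0.35. Ciita differed by -2.09, -0.98 and -2.25. The exception to the common direction was H2-Oa, at 0.17, 1.39 and -0.08. For all 10 genes the value farthest toward higher levels was that of replicate 2. The 9 genes share the 3 libraries at 4.4 mg/ml and are not independent of each other.

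**Figure D3:**
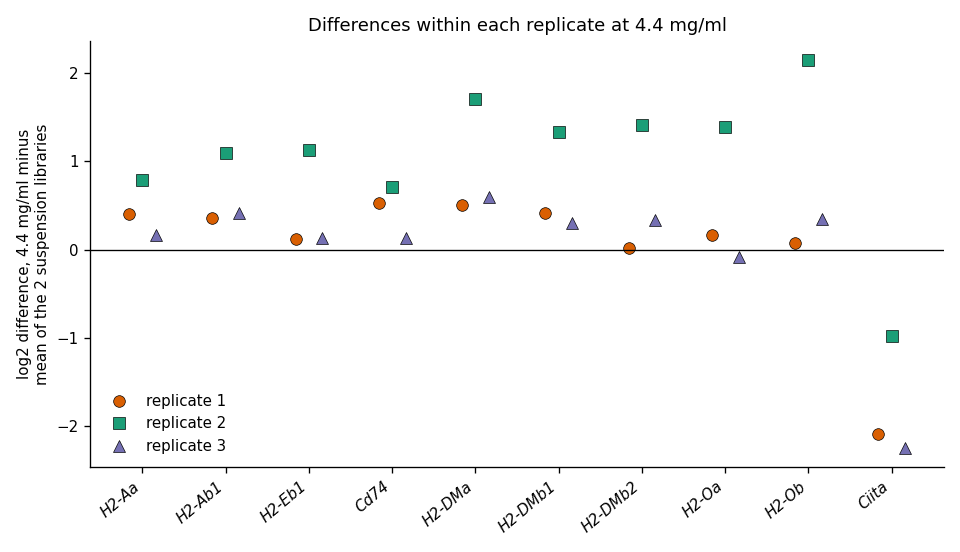
Difference in log2 CPM between the 4.4 mg/ml library and the mean of both suspension libraries of the same replicate number (y axis) for each of the 10 genes (x axis), with 1 point per replicate. Replicate 2 is the highest point for every gene, from -0.98 for Ciita to 2.15 for H2-Ob.

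The estimates for these genes were not graded over the gels. At 1.7 mg/ml the 9 genes other than Ciita lay between 0.10 (H2-Aa) and 0.44 (H2-DMa) relative to suspension, at 2.6 mg/ml between -0.23 (Cd74) and 0.21 (H2-DMa), and at 3.5 mg/ml between -0.004 (H2-Oa) and 0.33 (H2-DMa). None passed. The median log2 difference over the 10 members was 0.18, -0.14, 0.11 and 0.63 from the lowest to the highest density, beside medians over all genes between -0.02 and 0.02. The 2.6 mg/ml group held the lowest library of 7 of the 10 genes, its replicate 3 (H2-Aa 2536 CPM, H2-DMa 87.6 CPM, H2-Oa 13.5 CPM). These 4 comparisons share their suspension libraries.

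Per kilobase of exon, the order of the levels was led by Cd74 in both conditions. The length used was the union of all annotated exons, which can exceed that of the transcripts present. The order and the ratios per length rest on it. In suspension Cd74 stood at 11410 ± 5979 CPM per kb (SD, n = 6), followed by H2-Eb1 at 1509, H2-Ab1 at 1448 and H2-Aa at 1259, which differed by less than their spread. H2-DMb1 (65.6), H2-DMa (58.5) and H2-DMb2 (47.8) came next, then H2-Oa (27.6), Ciita (14.6) and H2-Ob (3.52). At 4.4 mg/ml Cd74 stood at 14550 ± 5564 CPM per kb (SD, n = 3), H2-DMa at 113, H2-DMb1 at 108, H2-DMb2 at 74.2 and H2-Oa at 40.5. Ciita was then last, at 3.55 ± 0.574 CPM per kb, behind H2-Ob at 6.42 ± 2.79, without overlap between these 2 genes. The summed CPM of Cd74, H2-Aa, H2-Ab1 and H2-Eb1 was 626, 1351 and 1791 times the CPM of Ciita at 4.4 mg/ml, 70.1, 136 and 184 times in the suspension libraries titled as without CCL19, and 169, 1115 and 607 times in those titled plus CCL19, which overlap the 4.4 mg/ml range. Per length, H2-DMa exceeded H2-Oa 2.24 to 3.67 times in collagen and 1.84 to 2.87 times in suspension, ranges that overlap.

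The factors that bind the class II promoter module were followed as a list of 13 genes. Collagen against suspension, 2 rose and 2 fell, against 20.2% of all genes called. Rfx5, the DNA-binding subunit of RFX, stood at 5.08, 6.54 and 7.67 CPM in the 1.7 mg/ml libraries and at 6.24, 4.19 and 4.42 CPM in those of 2.6 mg/ml. The 3.5 mg/ml libraries held 5.83, 3.79 and 2.08 CPM of Rfx5, and those of 4.4 mg/ml 5.91, 3.16 and 2.75 CPM. In suspension Rfx5 was at 10.8, 9.73 and 10.5 CPM (titled plus CCL19) and at 13.4, 15.1 and 17.2 CPM (titled as without). All 12 collagen libraries lay below all 6 suspension libraries, a pattern found in 1.52% of all genes tested. The log2 difference of Rfx5 was -1.41 (SE 0.23, adjusted p = 0.00113), and -1.67 at 4.4 mg/ml (SE 0.36, adjusted p = 0.00910). Unlike that of Ciita, the call of Rfx5 over all collagen libraries was kept against either suspension group alone, at -1.14 (titled plus CCL19, adjusted p = 0.0239) and -1.69 (titled as without, adjusted p = 0.00483). The other RFX subunits, Rfxap and Rfxank, did not pass.

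Creb1, a CRE-binding factor, went the other way. Its libraries stood at 41.5 to 105 CPM in collagen (median 65.2) and at 18.9 to 48.1 CPM in suspension (median 35.0), with overlap, and the log2 difference was 1.04 (SE 0.21, adjusted p = 0.00486). Against the suspension libraries titled as without CCL19 alone the difference of Creb1 was 0.67 (adjusted p = 0.177), which did not pass. Nfyc, an NF-Y subunit, rose by 0.56 (SE 0.18, adjusted p = 0.0489) and Irf1, an interferon-induced factor, fell by 0.61 (SE 0.16, adjusted p = 0.0189). The replicate block gave 7 calls among the 13, 3 higher and 4 lower, beside 34.8% of all genes, 15.6% higher and 19.3% lower. The added calls were Nfya (-0.36, adjusted p = 0.0517), Irf8 (0.44, adjusted p = 0.0830), a factor of DC identity, and Prdm1 (-0.67, adjusted p = 0.0308), which encodes a repressor of Ciita. Spi1 and Irf4 did not pass in either fit.

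**Figure D4:**
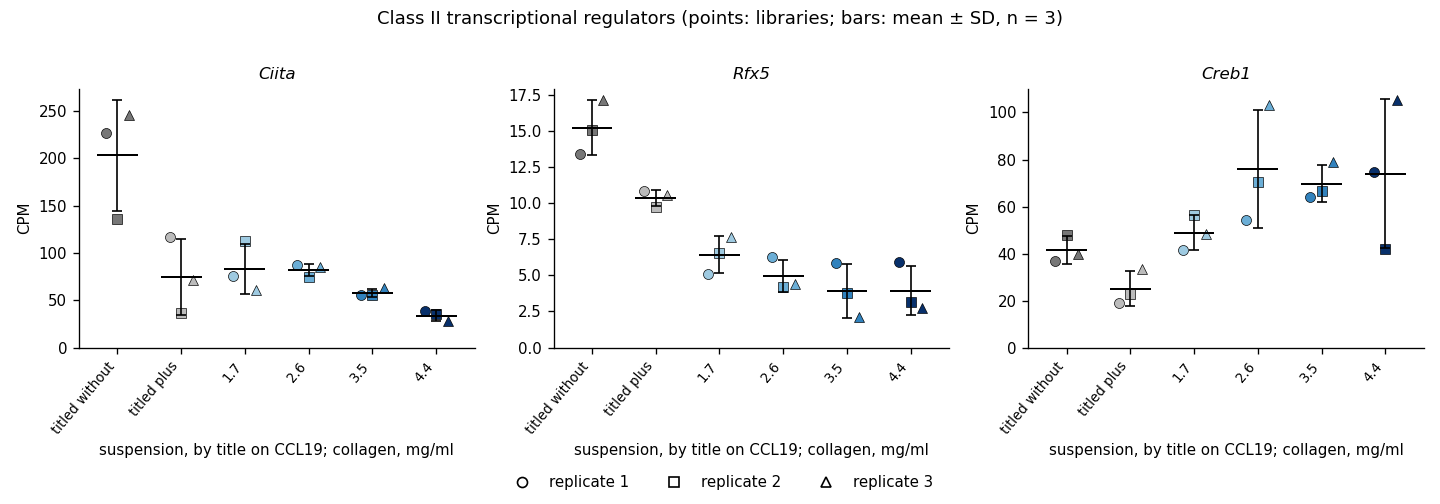
CPM (y axis) of Ciita, Rfx5 and Creb1 in each library by group (x axis), with 1 point per library and bars giving the mean ± SD of 3. The collagen libraries of Rfx5 (2.08 to 7.67 CPM) lie below all suspension libraries (9.73 to 17.2 CPM), while Ciita and Creb1 overlap between conditions.

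The processing and trafficking genes were a list of 15, mostly proteases, tetraspanins and ubiquitin ligases. The list also holds a thiol reductase, Cd83 and a lysosome transcription factor. It gave 1 call in collagen against suspension, where 20.2% of all genes were called. March8, a membrane-bound ubiquitin ligase that can ubiquitinate class II, fell by 0.59 (SE 0.15, adjusted p = 0.0184). March1, the related ligase that ubiquitinates class II in immature DCs, differed by -0.59 with a wider error (SE 0.35, adjusted p = 0.291), at 2.53 to 17.6 CPM over all libraries. Cd83, which opposes March1, differed by -0.09 (SE 0.15, adjusted p = 0.754), and Ctss, the protease that trims the invariant chain in DCs, by 0.12 (SE 0.24, adjusted p = 0.795). The block gave 5 calls among the 15, a share close to the 34.8% of all genes. Ctsl (0.78, adjusted p = 0.00327), Ctsb (0.50, adjusted p = 0.0354) and Ctsz (0.43, adjusted p = 0.0988), lysosomal proteases, and Cd9 (0.47, adjusted p = 0.0756), a tetraspanin, rose, and March8 fell.

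At 4.4 mg/ml, 2 of the 15 processing genes were called without the block, beside 14.8% of all genes. These were Cd82 (0.88, SE 0.30, adjusted p = 0.0751), a tetraspanin found with H2-DM in endosomes, and March8 (-0.72, SE 0.23, adjusted p = 0.0611). With the block 6 of 15 were called, 5 higher and 1 lower, beside 31.9% of all genes, with Ctsd (1.28, adjusted p = 0.0171) at the largest estimate. Ctsd stood at 4231, 7675 and 1442 CPM at 4.4 mg/ml (replicates 1, 2 and 3) and at 804.7 to 5529 CPM in suspension. Only replicate 2 lay above that range, and compared within replicates Ctsd was higher in 2 and lower in 1. Cd82 was also highest in replicate 2 (535.9 CPM). Its replicate 3 (374.2 CPM) lay above the highest suspension library (270.4 CPM) as well. Macrophages also express lysosomal proteases, and the macrophage markers called in the same fit are given above. The part of such cells in the levels of the processing genes was not tested.

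**Figure D5:**
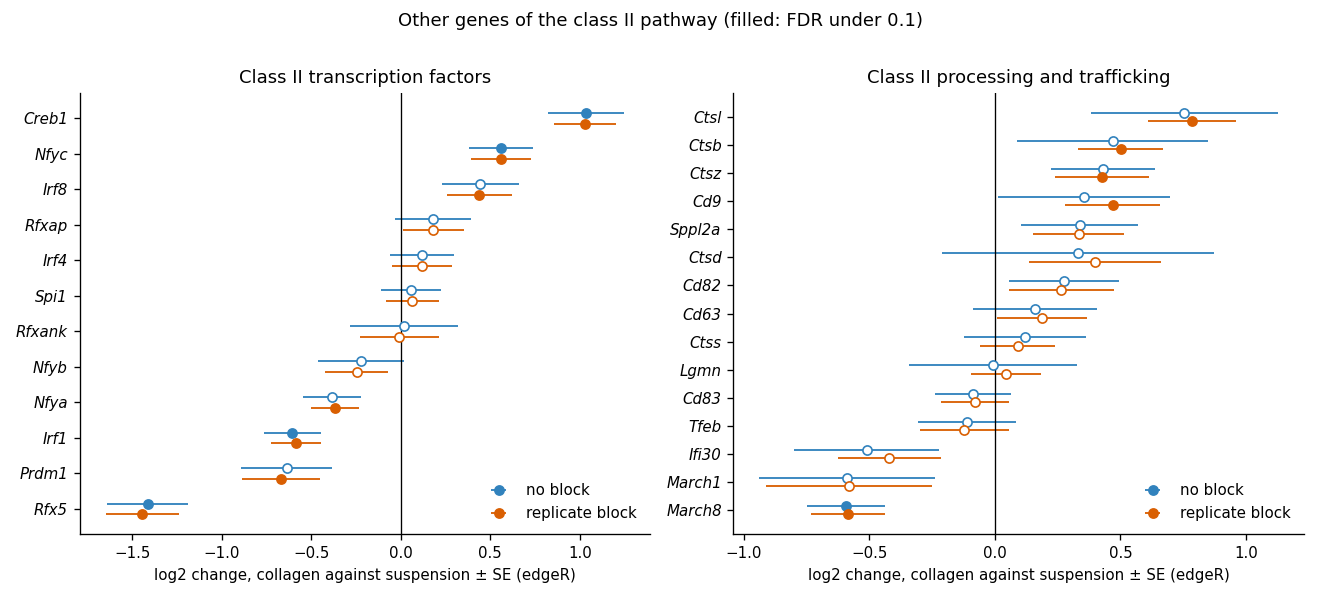
Log2 difference of collagen minus suspension with its SE (x axis, edgeR, blue without and orange with the replicate block) for 12 of the 13 class II transcription factors and the 15 processing genes (y axis). Filled points passed FDR 0.1, and without the block Rfx5 (-1.41) is farthest to the left and Creb1 (1.04) farthest to the right.

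Some members share exonic sequence with a gene on the other strand. Ciita overlaps Dexi by 329 exonic bases, H2-DMa overlaps Brd2 by 360 and H2-Oa overlaps BC051537 by 321. Strand was kept in the library kit, but whether the counting used it is not given in the sources used here. Dexi rose in collagen by 0.45 (SE 0.15, adjusted p = 0.0543), the opposite direction to Ciita, and 1.46% of the 50-base stretches of Ciita occur in it. Brd2, which encodes a chromatin reader, rose at 4.4 mg/ml by 1.5 (SE 0.50, adjusted p = 0.0709), the same direction as the estimate of H2-DMa, and 8.43% of the stretches of H2-DMa occur in it. Brd2 stood at 950, 985 and 319 CPM at 4.4 mg/ml, above the level of H2-DMa in each of these libraries, and its part in the H2-DMa counts was not tested. BC051537 stood at 1.42 CPM or less, and 15.5% of the stretches of H2-Oa occur in it.

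Across the 18 libraries, the genes whose log2 CPM followed Ciita most closely were Foxred2 (Pearson r = 0.886), Vav2 (0.878), Cdon (0.865), Ptprf (0.856) and Prex1 (0.851). Ciita itself ran against the other 9 members, with r from -0.507 (H2-Ab1) to -0.213 (H2-Ob). Cd74 was followed most closely by Higd2a (0.968), Tagln2 (0.966), Lgals1 (0.963), Dap (0.959) and Acot7 (0.956), and among the members by H2-Aa (0.959). H2-Ob was followed by Gm10364 (0.912), Gm11110 (0.911), Gm5216 (0.910), Gm2221 (0.910) and Pfkp (0.909), and had r = 0.153 with Cd74. These libraries share batches by replicate number and differ in depth, so the correlations are descriptions only. After centring on the mean of each replicate number, 3 of the 5 genes named for Ciita remained among its 5 closest, and none of those named for Cd74 or for H2-Ob. Centring raised r between Cd74 and H2-DMa from 0.370 to 0.915.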

How the data were processed

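The authors sequenced TruSeq Stranded mRNA libraries as single-end reads of 50 bases, and the submitters' processing notes name STAR 2.7.0f and GRCm38. The deposited values are raw gene counts of 18 libraries, in 1 table with 29875 genes, 29866 of them with a symbol. The study's methods name RSEM for TPM values, which are not used here, and the program and strand setting behind the counts are not given in the sources used here. All columns matched a library, 0 of 153 pairs of libraries were identical, and 0 rows named no gene.

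Counts were filtered with filterByExpr, scaled by TMM and fitted with edgeR 4.0.16 (glmQLFit, R 4.3.3) in 1 model of 6 groups, with p-values adjusted over 13844 genes at an FDR of 0.1. Genes varied between libraries of a group by 49.0% (biological coefficient of variation), or by 33.1% once the replicate number entered as a block. CPM used TMM-scaled library sizes, log2 CPM a prior count of 2, and CPM per kb the union of exons (GENCODE, GRCm38). The replicate number pairs the libraries: each number has its own date and sequencing lane in the library names. Deviations from group means correlated at a mean r of 0.434 within a number, with a lowest value of -0.149. Between numbers of different groups the mean r was -0.214. Its sign follows from the first value, since deviations cancel within each group, so it adds no separate evidence. Blocked values therefore stand beside a result where they change a call.

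All 10 members were named. Listed genes were named where called in collagen against suspension, at most 8 a list, or explained as background, and for Cd74, Ciita and H2-Ob the 5 genes most correlated. Brd2, Cd82, Ctsd and the macrophage markers given singly were named after their values were seen. The members and lists were chosen with earlier results of these data known. Scripts were tested on simulated counts. Alternatives were DESeq2 1.42.0, its size factors, no filter, offsets for GC content and length (loess span 0.5, 29850 genes with values), the replicate block, fits to the groups compared only, an FDR of 0.05 and leaving out replicates, and, added after the data were seen, each suspension group alone as control and leaving out each library. Single values of some listed genes are not reported here.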

Additional observations from a re-analysis of the deposited data

How the results depend on the processing

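Of 472 values for named genes under the alternatives, 391 kept their direction and their side of the threshold, 17 were weaker, 57 were stronger and 7 reversed. These alternatives include the fits without 4.4 mg/ml replicate 2. They include no other left-out library, no single control group and no blocked fit with a whole replicate left out. Ciita at 4.4 mg/ml was called under each alternative run. With the replicate block Ciita over all collagen libraries was called too (log2 difference -0.99, adjusted p = 0.00138). Over the same alternatives its adjusted p ran from 1.1e-04 to 0.121, and with 1 replicate left out the log2 difference of Ciita over all collagen libraries lay between -1.35 and -0.73. Against the suspension libraries titled plus CCL19 alone, Ciita fell short at -0.30 without and -0.25 with the block over all collagen libraries, and reversed at 1.7 mg/ml (0.15 and 0.23) and at 2.6 mg/ml (0.14 and 0.19).

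The same control reversed the uncalled differences over all collagen libraries of H2-Aa (-0.047), Cd74 (-0.094, and -0.024 with the block) and H2-Oa (-0.26, and -0.32 with the block). Without 4.4 mg/ml replicate 2, H2-Oa with the block turned to -0.065 over all collagen libraries and -0.058 at 4.4 mg/ml. With 1 replicate left out, collagen minus suspension lay between -0.052 and 0.41 for H2-Aa, -0.031 and 0.48 for H2-Eb1, -0.031 and 0.46 for Cd74, -0.051 and 0.46 for H2-DMb1 and -0.012 and 0.35 for H2-Oa. None of these was called, and the cause was not tested.

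Collagen against suspension, the number of members called was 2 with offsets for GC content and length (H2-DMa at 0.64 beside Ciita), 3 with these and the block (H2-Ab1 at 0.42 as well), 0 against the libraries titled plus CCL19 alone in both fits, and 0 to 1 with a replicate left out. With the block, it was 2 without replicate 3, without 2.6 mg/ml replicate 3 and without replicate 3 of the suspension group titled as without CCL19. At 1.7 and 2.6 mg/ml it was 1 against the libraries titled as without CCL19 alone with the block, and at 2.6 mg/ml 1 with the block without replicate 2 or without replicate 2 of the group titled plus CCL19.

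At 3.5 mg/ml the number was 0 with DESeq2 size factors, with the GC and length offsets with or without the block, with only the groups compared, at an FDR of 0.05, against the libraries titled plus CCL19 alone, with the block without replicate 1, replicate 3 or 3.5 mg/ml replicate 1, and 0 to 1 with a replicate or library left out. At 4.4 mg/ml it was 2 with no filter, with DESeq2 and with the offsets, 4 with the block and with the block and offsets, 6 with the block in DESeq2, 4 against the libraries titled as without CCL19 alone with the block, and 1 to 2 with a replicate left out. With the block and a replicate out it was 1, 4 or 5. With the block and a library out it ranged from 1 (without 4.4 mg/ml replicate 2) through 2, 3, 4 and 6 to 7 (without 4.4 mg/ml replicate 1, or without replicate 3 of the group titled as without CCL19).

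For the slope over the densities, 1 member (Ciita) was called with no filter, with DESeq2, with the block, with the block in DESeq2, with the block and offsets, and in 10 of 18 blocked fits with a library out. For 4.4 against 1.7 mg/ml, 1 was called with DESeq2, with the block, with the block in DESeq2, with the block and offsets, and in 8 of those 18. Between the suspension groups 1 (Ciita) was called with the block in DESeq2 and with the block without replicate 3 of the group titled as without CCL19. Among the 6 groups 2 were called with the block in DESeq2, with the block and offsets, and with the block without 4.4 mg/ml replicate 1 or without replicate 3 of the group titled as without CCL19, and 0 to 1 with a replicate left out.

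The block changed no other call of a member. The number of genes called moved with the fit. Over all the fits run it was 631 to 5401 in collagen against suspension, 0 to 1095 at 1.7 mg/ml, 0 to 3665 at 2.6 mg/ml, 0 to 3200 at 3.5 mg/ml, 106 to 5079 at 4.4 mg/ml, 0 to 811 for the slope, 0 to 929 for 4.4 against 1.7 mg/ml, 0 to 1014 between the suspension groups and 0 to 5298 among the 6 groups. Each group had 3 libraries, which limits the precision of every difference, while the counts of the members (142 or more in each library) do not.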
